A study of Mus musculus with 8 samples.

Results

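The genes described here encode 3 families of DNA-binding transcription factors, 9 genes in all: the nuclear factor I genes Nfia, Nfib, Nfic and Nfix, the homeobox genes Meis1 and Meis2, and the POU genes Pou3f1, Pou3f2 and Pou3f3. They were taken by symbol from a table of 21887 protein-coding mouse genes. CHD4, H3K4me3 and p300 were mapped by CUT&Tag in wild-type iMOPs, an immortalized mouse line of otic progenitors. The cells were either proliferating in medium with 20 ng/ml bFGF or turned into neurons in medium with 1 µM K03861. No other treatment is listed. The compound K03861 is listed for neurons only and bFGF for progenitors only, so their effects cannot be told apart from that of cell state. The labels give 1 sample per antibody and state, from 500000 cells each, and the peak lists are named as merged without saying what was merged, so no difference between the states carries a replicate check and no p-value is given. Read depth is unknown, all cells came from 1 line in culture, and IgG, present as 2 further libraries, is not used here. The genes were chosen by values of these same 6 peak lists (which peaks were listed, their widths and their ranks by total signal), so counts, widths and those ranks are descriptions, and nothing is read from how they compare with other genes.

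NFI proteins bind DNA as dimers and act in the switch from progenitor division to neuronal and glial maturation. Meis proteins belong to the TALE homeobox class and bind DNA together with Pbx and Hox or Pax partners. Pou3f proteins, also called Brn or Oct factors, act in neural progenitors, often beside Sox proteins. H3K4me3 is a histone mark of active promoters, and wide domains of it are often found at genes for regulators of cell identity. CHD4 is the motor of the NuRD repressor complex, and p300 is an acetyltransferase found at active enhancers and promoters.

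Sequence could be set beside the peaks at 3 transcript starts where the 50-bp position of highest CHD4 signal, or part of it, fell in the 250 bases before the start. RefSeq promoter windows (GRCm38.p6, the assembly of mm10) matched 7 of the 9 genes. The runs below read 5′ to 3′ toward the start. The Pou3f3 run is chr1:42695518-42695767 on the plus strand, and its capitals mark the highest signal of the neuron CHD4 peak, which was also that of a progenitor p300 peak. The Pou3f2 run is chr4:22488367-22488616 on the minus strand, and its capitals mark the highest progenitor CHD4 signal together with the part of the highest neuron CHD4 and progenitor p300 signal that falls in the window. The Nfix run is chr8:84775829-84776078 on the minus strand, before a start inside the Nfix span, and its capitals mark the highest signal of a CHD4 peak listed in neurons only.
Pou3f3: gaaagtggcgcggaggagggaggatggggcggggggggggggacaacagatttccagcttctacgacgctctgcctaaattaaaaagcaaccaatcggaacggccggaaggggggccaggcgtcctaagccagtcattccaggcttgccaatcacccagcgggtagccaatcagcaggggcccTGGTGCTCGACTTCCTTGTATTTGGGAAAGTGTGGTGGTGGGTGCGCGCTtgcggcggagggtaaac
Pou3f2: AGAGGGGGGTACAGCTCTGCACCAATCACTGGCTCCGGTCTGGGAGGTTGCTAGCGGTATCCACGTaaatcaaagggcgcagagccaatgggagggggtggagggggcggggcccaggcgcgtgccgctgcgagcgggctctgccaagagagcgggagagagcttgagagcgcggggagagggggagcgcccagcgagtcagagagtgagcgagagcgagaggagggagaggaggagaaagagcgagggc
Nfix: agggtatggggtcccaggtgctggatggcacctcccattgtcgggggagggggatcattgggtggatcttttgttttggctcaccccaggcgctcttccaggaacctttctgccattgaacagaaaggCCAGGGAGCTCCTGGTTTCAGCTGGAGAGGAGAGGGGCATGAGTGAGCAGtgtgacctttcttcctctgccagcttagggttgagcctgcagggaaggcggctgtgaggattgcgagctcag

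These windows differed in base composition. The Pou3f3 window held 15 CpG pairs, that of Pou3f2 held 18, and that of Nfix held 4, with a median of 10 over 21263 windows of protein-coding genes. The NFI core letters TTGGC, searched on both strands in the 250 bases, occurred 2 times each at Pou3f3 and Pou3f2 and 1 time in the Nfix window shown. Windows with these letters were common, at 43.0% of all those searched. At Pou3f3 both matches, and at Pou3f2 1 of them, were preceded by A and so overlap the letters CCAAT read on the other strand. The full NFI palindrome (0.0329% of all windows), the Meis letters TGACAG (15.4%) and the Pou octamer ATGCAAAT (1.58%), searched likewise on both strands, occurred in none of the 10 windows of these genes.

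In the text below, a peak lies at a gene end if it comes within 1 kb of either end of the annotated span, in the gene body if it lies elsewhere in the span, and in the flank if it comes within 50 kb outside. A percentile by total signal or by width is the rank among all peaks of the same list, since the scaling between lists is not given; percentiles from lists of different length show no change between states. The 9 windows held 112 listed peaks: 25 of CHD4, 22 of H3K4me3 and 24 of p300 in progenitors, and 22, 16 and 3 in neurons. Per Mb of window this was 11.6, 10.2 and 11.2 peaks in progenitors and 10.2, 7.45 and 1.40 in neurons, where windows of all protein-coding genes held 3.98, 8.14 and 2.77, then 3.33, 6.13 and 0.619. The neuron p300 list was the shortest of all, with 965 peaks against 3144 in progenitors, and the part of list length in the difference cannot be told apart from a change in p300. The other list lengths were 4919 and 4599 for CHD4 and 7472 and 5625 for H3K4me3. Neuron CHD4 peaks were wider over the whole list, with a median of 5200 bp against 3400 bp in progenitors and a limit of the widest 1% at 23254 bp against 13250 bp. The median H3K4me3 widths were 4300 bp and 3700 bp.

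At their ends, 6 of the 9 genes had CHD4, H3K4me3 and p300 in progenitors: Nfib, Nfic, Meis1, Meis2, Pou3f2 and Pou3f3. Among all protein-coding genes 11.8%, 37.6% and 8.44% had such a peak. In neurons CHD4 and H3K4me3 were both listed at 5 of the 9 (all but Nfic of the genes just named), with 9.95% and 30.0% of all genes, and p300 at 0 of 9, with 1.24% of all genes. Nfia, Nfix and Pou3f1 had no peak at an end in any list. Listed at an end in both states were CHD4 at 5 members (7.49% of all genes), H3K4me3 at 5 (29.4%) and p300 at 0 (0.896%). In progenitors only, CHD4 and H3K4me3 were each listed at 1 member, Nfic (4.27% and 8.21% of all genes), and p300 at 6 (7.54%). No member had an end listed in neurons only, which held for 2.45% of all genes for CHD4, 0.612% for H3K4me3 and 0.343% for p300. The 5 members other than Nfia, Nfic, Nfix and Pou3f1 had a gene-end peak in at least 5 of the 6 lists, as 4.84% of all genes did.

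With the gene body included, CHD4 was listed at 8 of the 9 genes in progenitors (15.5% of all genes) and 7 in neurons (13.4%). H3K4me3 was listed at 7 in each state (39.9% and 31.8%), and p300 at 8 in progenitors (11.2%) and at 1, Nfia, in neurons (2.52%). Only Pou3f1 had neither an end nor a body peak in any of the 6 lists. With 50 kb of flank, all 9 had a peak in each list but neuron p300, which had 2, Nfia and Nfix. Of all genes this held for 34.2%, 59.6% and 26.9% in progenitors (CHD4, H3K4me3, p300) and for 30.0%, 51.7% and 7.25% in neurons. Among genes with H3K4me3 at an end, 6 of 6 members also had CHD4 in progenitors (27.1% of all such genes) and 6 of 6 had p300 (19.8%). In neurons the counts were 5 of 5 for CHD4 (23.6%) and 0 of 5 for p300 (2.65%).

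**Figure D1:**
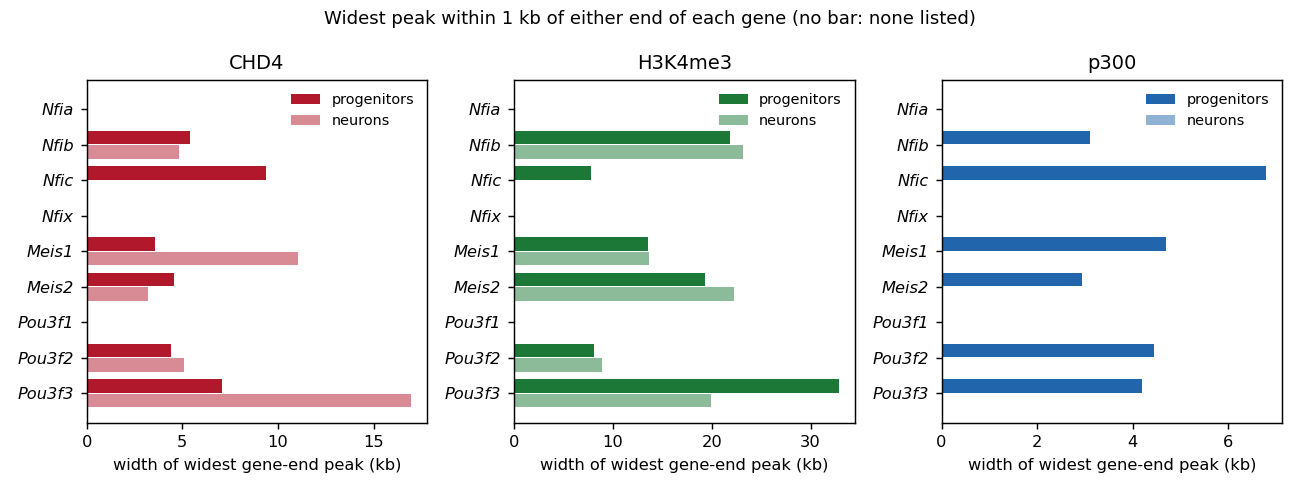
Width in kb of the widest peak within 1 kb of either end of each gene, 1 panel per antibody, with dark bars for progenitors and pale bars for neurons; no bar means that no peak was listed. H3K4me3 reaches 32850 bp at Pou3f3 in progenitors, and no neuron p300 bar is present.

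Nfib carried 1 of the widest H3K4me3 domains of both states, at the high-coordinate end of its span (chromosome 4, 82290173 to 82506751), where the noncoding genes Gm11266 and 2310067E19Rik also have an end. The domain measured 21850 bp in progenitors, from 82493501 to 82515350, and 23150 bp in neurons, from 82492251 to 82515400, which made it the 5th and the 3rd widest peak of its list. The neuron domain covered 100% of the progenitor one. CHD4 did not fill it. In progenitors CHD4 peaks of 5400 bp and 4650 bp lay inside and together took up 46.0% of its length, and in neurons peaks of 4850 bp and 4550 bp took up 40.6%. The CHD4 peak across the gene end had its highest signal at the same 50 bp in both states, 82506951 to 82507000, just outside the annotated span, and the progenitor p300 peak there (3100 bp) had its highest signal at the same place. By total signal the CHD4 peak stood at the 70.2nd percentile in progenitors and the 39.5th in neurons. Further out, a further CHD4 peak of 7750 bp was listed in neurons only, from 82530201 to 82537950, over part of an H3K4me3 peak that was listed in both states.

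Nfic was the only one of the 9 with CHD4 and H3K4me3 at an end in progenitors and at neither end in neurons. In progenitors CHD4, H3K4me3 and p300 covered almost the same stretch of the gene body (chromosome 10, span 81396191 to 81431919), with widths of 13100 bp, 13450 bp and 13850 bp, and all 3 had their highest signal at 81416801 to 81416850. The CHD4 peak ranked 11th of its list by total signal and the p300 peak 19th, whereas the H3K4me3 peak, the 49th widest, stood at the 0.642nd percentile by mean signal per bp, a broad and faint peak. At the transcript start end of the span, which lies on the minus strand, CHD4 (9350 bp), H3K4me3 (7800 bp) and p300 (6800 bp) were listed as well. In neurons neither CHD4 nor p300 was listed anywhere in the gene, and H3K4me3 was left as a single body peak of 7550 bp at the 0.284th percentile by mean signal per bp. At an end of the neighbour Fzr1, a regulator of the anaphase-promoting complex, CHD4 was listed in both states with its highest signal at the same 50 bp, at the 58.1st percentile by total signal in progenitors and the 24.4th in neurons. H3K4me3 at that end measured 3250 bp in each state.

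Nfix showed CHD4 without H3K4me3. No H3K4me3 peak lay at an end or in the body of the gene in either state (chromosome 8, 84704712 to 84801238), whereas CHD4 had 4 body peaks in progenitors and 4 in neurons. All 4 progenitor peaks overlapped a p300 peak, and no p300 peak was listed in the gene in neurons. The CHD4 peak from 84707301 to 84715250 in progenitors (93.9th percentile by total signal) was listed in neurons from 84706501 to 84715300 (87.0th percentile), with its highest signal at 84712551 to 84712600 in both. The other 3 progenitor peaks, of 3350 bp, 5900 bp and 5400 bp, all fell within a single neuron peak of 30050 bp, from 84716751 to 84746800, the 21st widest of the 4599 neuron CHD4 peaks. Among those 4599 peaks, 15 (0.326%) overlapped 3 or more progenitor CHD4 peaks, in whole or in part. Neurons also had CHD4 peaks toward the transcript start of this minus-strand gene that progenitors lacked: 1 of 3850 bp over the internal start whose sequence is shown above, with its highest signal 73 to 122 bases before that start, and 1 of 7800 bp that ended 1088 bp short of the end of the span.

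Nfia, a gene of 541 kb, had all of its CHD4 inside the gene body (chromosome 4, 97578066 to 98118876). The 4 progenitor CHD4 peaks, of 5650 bp, 2900 bp, 4550 bp and 3100 bp, were all listed again in neurons, and 3 of the 4 had their highest signal at the same 50 bp. Each of the 4 carried p300 in progenitors, and 1 did in neurons. That site, 68585 bp inside the gene in progenitors, was the strongest of the 4 for CHD4 in both states (90.9th and 92.7th percentiles by total signal) and for p300 in progenitors (80.9th), and it was 1 of only 3 p300 peaks listed in neurons over the 9 windows. H3K4me3 in Nfia lay away from CHD4. A progenitor peak of 6750 bp over the start that RefSeq places at 97581943 was at the 0.495th percentile by mean signal per bp and was not listed in neurons. A second, at the end of the noncoding gene Gm38709, measured 10050 bp in progenitors and 4850 bp in neurons, with its highest signal at the same 50 bp.

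**Figure D2:**
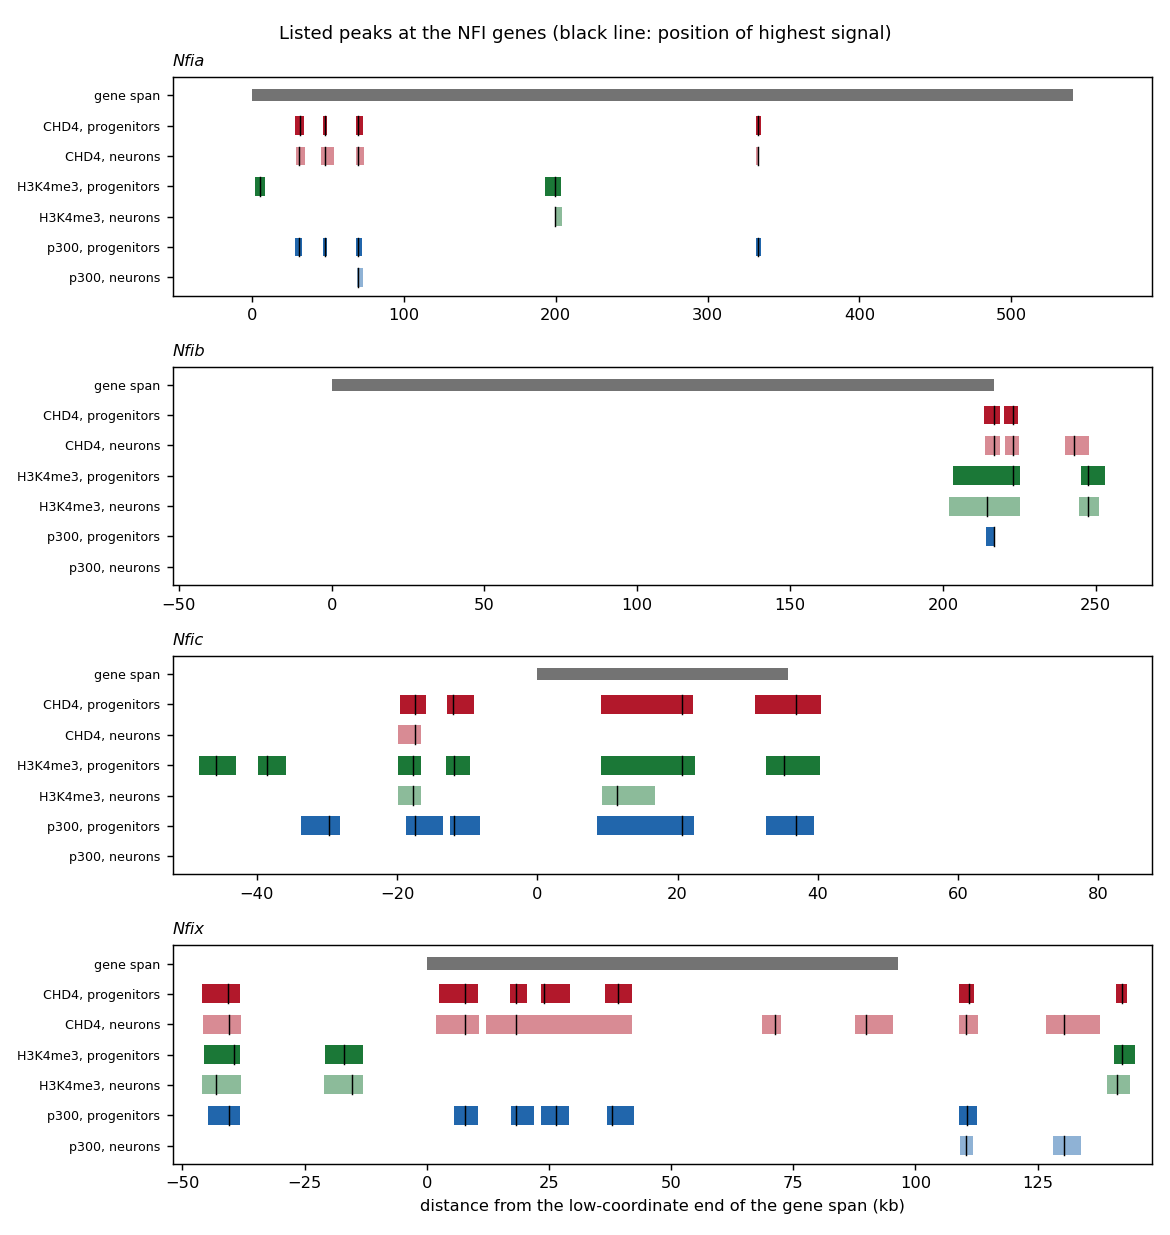
Listed peaks in the windows of the 4 NFI genes, as distance in kb from the low-coordinate end of each span (grey bar), with 1 row per list, dark for progenitors and pale for neurons, and a black line at the position of highest signal. Nfib shows the wide H3K4me3 domain with narrower CHD4 peaks inside it, Nfic no CHD4 or p300 peak listed in the gene in neurons, and Nfix the neuron CHD4 peak of 30050 bp over 3 progenitor peaks.

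At Meis1 the CHD4 peak of progenitors lay at the transcript end, not at the start. The gene is on the minus strand of chromosome 11 (18880428 to 19019651). At its transcript end CHD4 measured 3550 bp in progenitors and 11050 bp in neurons, with the highest signal at 18883651 to 18883700 in both. Of 2 progenitor p300 peaks at this end, 1 of 3900 bp had its highest signal there too (21.3rd percentile by total signal). The other, of 4700 bp (34.8th percentile), was highest at 18877851 to 18877900 and overlapped no progenitor CHD4 peak. At the start end a CHD4 peak of 3550 bp was listed in neurons only, with its highest signal 19 to 68 bases after the RefSeq start, at the 11.7th percentile by total signal. H3K4me3 was wide at both ends: 13550 bp at the start and 12850 bp at the transcript end in progenitors, then 13700 bp and 6250 bp in neurons. The 2 progenitor domains were of nearly the same width, but that at the start stood at the 42.6th percentile by mean signal per bp and that at the transcript end at the 1.86th. The noncoding gene 8430419K02Rik has an end within the latter and Gm16141 within the former, so the mark at either end cannot be assigned to Meis1 alone.

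At Meis2, also on the minus strand, the start end had CHD4 in both states and the transcript end in progenitors only. In progenitors it was listed at both ends of the span (chromosome 2, 115861264 to 116067537), with 4550 bp at the start end and 2400 bp at the transcript end. In neurons it was listed at the start end only, with 3200 bp and its highest signal at the same 50 bp, 116067351 to 116067400, as in progenitors. The H3K4me3 domain at the start end was the 8th widest in progenitors (19350 bp) and the 4th widest in neurons (22250 bp), it also reached an end of the noncoding genes G630016G05Rik and 2810405F15Rik, and the neuron domain covered 100% of the progenitor one. CHD4 took up 23.5% of its length in progenitors and 14.4% in neurons. A small H3K4me3 peak at the transcript end, of 4250 bp, was listed in progenitors only, like the CHD4 peak that overlapped it, which had its highest signal at the same position.

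Pou3f3 had the 2nd widest H3K4me3 peak of all 7472 in progenitors, 32850 bp across the whole gene and both flanks (chromosome 1, 42682601 to 42715450, around a span of 4443 bp). It also reached the noncoding genes Pantr1, Pantr2, Gm46091 and 2900092D14Rik. In neurons the domain was listed in 2 pieces of 19900 bp and 4650 bp, which together covered 74.7% of the progenitor domain. Of the 77 progenitor H3K4me3 peaks in the widest 1%, 12 were split in neurons, 5 had no neuron peak, and the median share of length covered was 77.8%. CHD4 was listed in another way: progenitors had 3 peaks within the domain, of 4600 bp, 7050 bp and 3150 bp, and neurons had 1 peak of 16950 bp that took in the first 2. With gaps of up to 3 kb joined, the progenitor peak at the start measured 13100 bp. The progenitor CHD4 peak at the start had its highest signal 4018 to 4067 bases upstream, while in neurons the highest signal lay 18 to 67 bases before the start, the bases in capitals above. That position had been the highest of a progenitor p300 peak of 4200 bp. Over the whole neuron CHD4 list, 3.22% of peaks overlapped 2 or more progenitor peaks, and here 2 of 22 did, at Pou3f3 and Nfix.

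Pou3f2 had its CHD4 and H3K4me3 peaks over nearly the same stretch in both states. The CHD4 peak measured 4400 bp in progenitors and 5100 bp in neurons and the H3K4me3 peak 8100 bp and 8900 bp, all across the start end of this gene of 6272 bp on the minus strand (chromosome 4, 22482095 to 22488366). The highest CHD4 signal lay 185 to 234 bases before the start in progenitors and 235 to 284 in neurons, a single step of 50 bp. In progenitors p300 was also highest at 235 to 284 bases before the start. Its H3K4me3 peak was narrower than those of Nfib, Meis2 and Pou3f3 but denser, at the 75.2nd and 73.1st percentiles by mean signal per bp. The p300 peak of 4450 bp, at the 73.0th percentile by total signal in progenitors, was not listed in neurons.

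Pou3f1 had none of these peaks. No list held a peak at an end or in the body of this gene of 3010 bp (chromosome 4, 124657646 to 124660655). Of the 9 peaks in its flanks, 6 lay at an end of the genes Utp11 or Fhl3, and 2 further H3K4me3 peaks, 1 in each state, lay 39196 bp and 38296 bp from the gene. The nearest peak, a CHD4 peak of 6650 bp listed in neurons only, began 9296 bp from the gene.

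**Figure D3:**
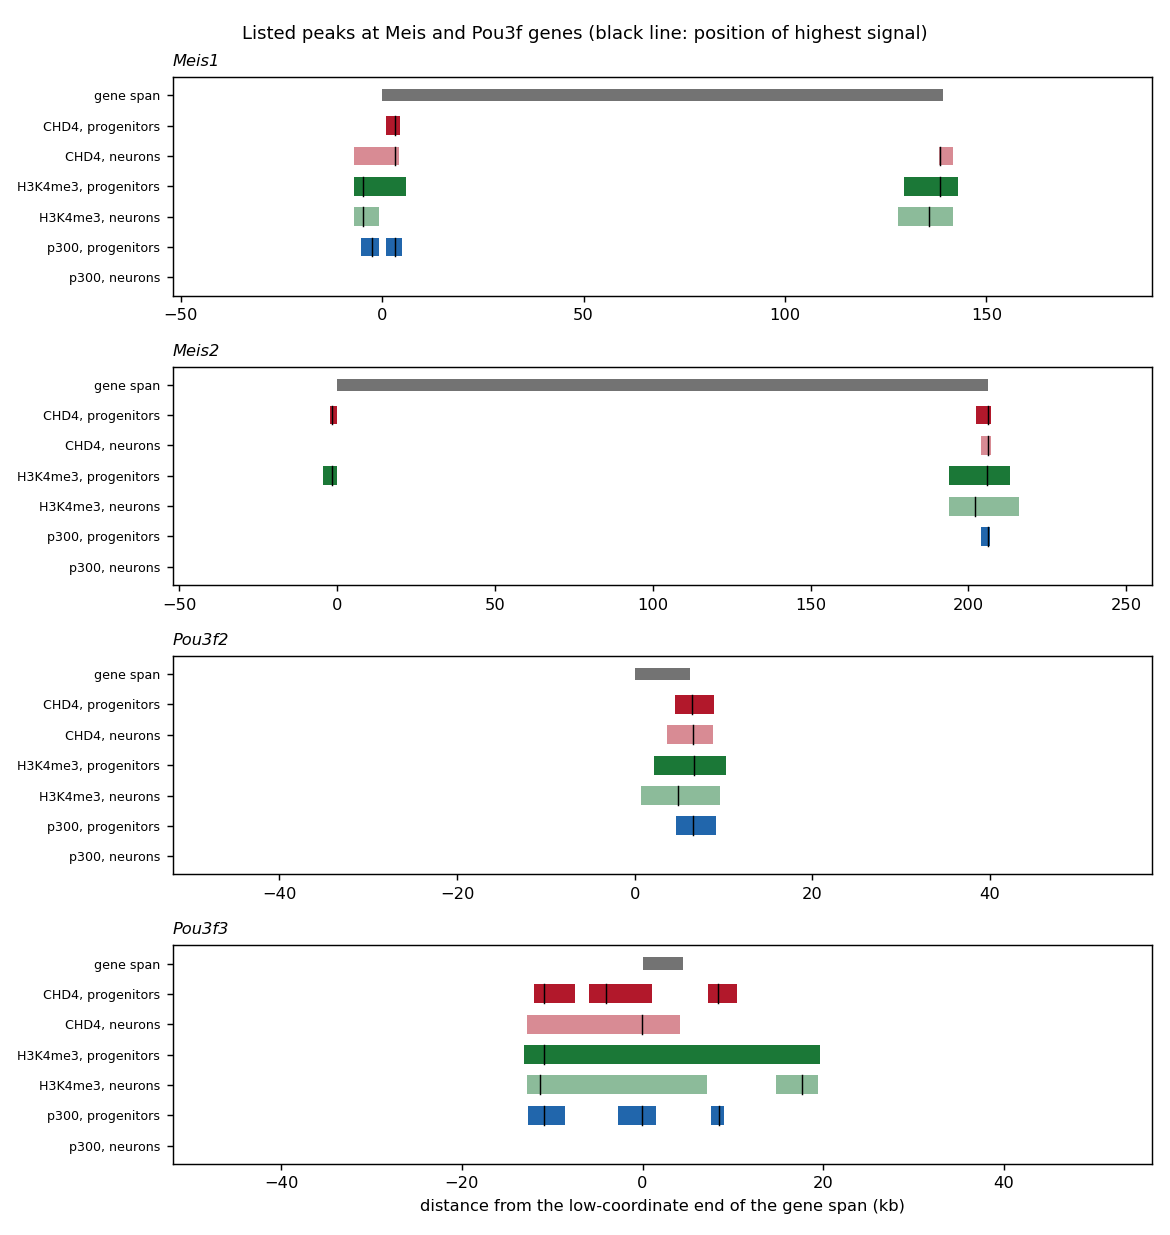
Listed peaks at Meis1, Meis2, Pou3f2 and Pou3f3, as distance in kb from the low-coordinate end of each span (grey bar), with 1 row per list, dark for progenitors and pale for neurons, and a black line at the position of highest signal. CHD4 is listed at the Meis1 start in neurons only and at the Meis2 transcript end in progenitors only, and the H3K4me3 domain of 32850 bp at Pou3f3 is in 2 pieces in neurons.

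Of the wide H3K4me3 domains at these genes, several had a low mean signal per bp. At an end, 4 of the 9 genes (Nfib, Meis1, Meis2 and Pou3f3) had a peak in the widest 1% of the list in each state, where 0.594% of all genes did in progenitors and 0.443% in neurons. In the widest 5% were 6 members in progenitors (2.54% of all genes) and 5 in neurons (2.08%). Over all 22 progenitor H3K4me3 peaks of the 9 windows the median was at the 94.7th percentile by width and at the 22.1st by mean signal per bp, and over the 16 neuron peaks at the 88.8th and the 43.8th. Flank peaks are part of these medians, 11 of the 22 in progenitors and 8 of the 16 in neurons. Of those flank peaks, 9 and 5 lay at an end of a neighbouring protein-coding gene. By total signal the medians of all peaks in the windows, flanks included, were at percentile 73.7 for H3K4me3 and 67.9 for CHD4 in progenitors, and at 63.9 and 58.2 in neurons. Mean signal per bp is total signal divided by width, both of which were used in choosing the genes, so these values are a description too. Over all wide peaks it was low as well: the widest 1% of the progenitor list had a median at the 21.1st percentile, with quartiles at the 5.37th and 41.3rd, and in neurons the median was at the 39.9th. The wide domains at Pou3f3, at the high-coordinate end of Nfib and at the start ends of Meis1 and Meis2 lay between the 26.8th and 44.4th percentiles in progenitors and between the 47.3rd and 56.9th in neurons. The wide peaks at the Nfic body and the Meis1 transcript end stood below the 2nd percentile in progenitors.

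**Figure D4:**
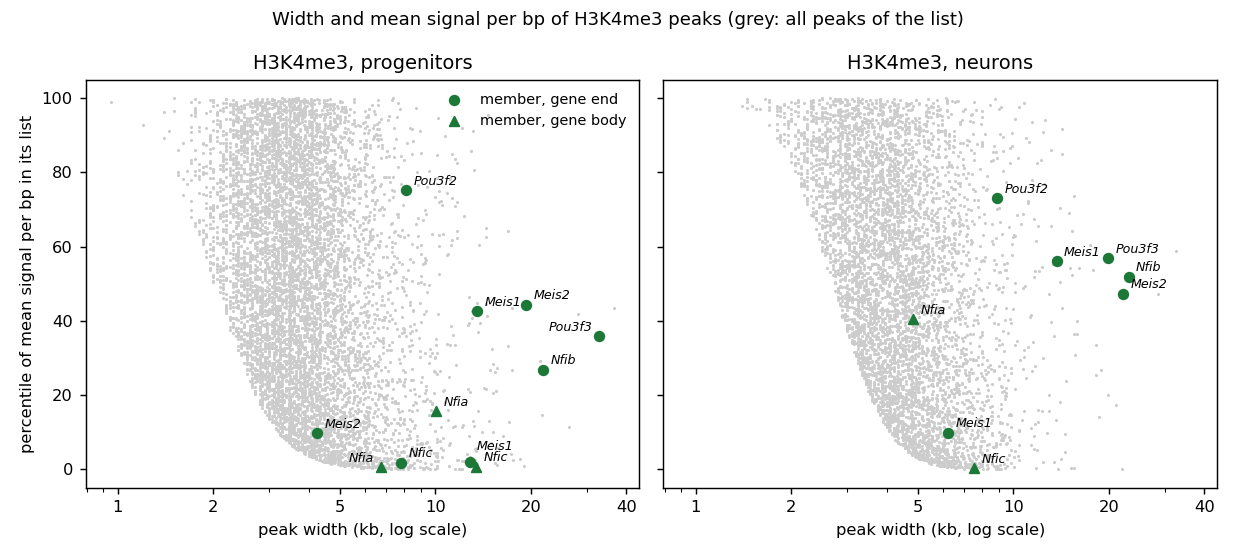
Each H3K4me3 peak by its width (kb, log scale) and the percentile of its mean signal per bp within its list, for progenitors and neurons; grey points are all peaks, green circles gene-end peaks and green triangles body peaks of the 9 genes. In progenitors the wide domains of Nfib, Meis1, Meis2 and Pou3f3 sit between the 26.8th and 44.4th percentiles, and the Nfic and Meis1 transcript-end peaks sit near 0.

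The position of highest signal, which was not used in choosing the genes, was compared between the states for CHD4 and H3K4me3. Of the 25 progenitor CHD4 peaks in the windows, 19 overlapped a neuron CHD4 peak (76.0%, and 66.2% over the list), and in 9 of the 19 the positions lay within 50 bp, as in 54.2% of such pairs over the list. In 5 of the 19 the positions lay 4000 bp or more apart: 2 at Pou3f3 and 2 at Nfix, where several progenitor peaks fell into a single neuron peak, and 1 in the flank of Pou3f1. In the reverse direction 16 of 22 neuron CHD4 peaks overlapped a progenitor one (67.4% over the list). Of 22 progenitor H3K4me3 peaks, 15 overlapped a neuron one (68.2%, and 74.0% over the list). In 4 of the 15 the positions lay within 50 bp, against 50.5% of pairs over the list. For the widest 1% of progenitor peaks it was 29.2% of pairs (interval 19.0 to 41.1). All 16 neuron H3K4me3 peaks in the windows overlapped a progenitor one (98.1% over the list). At the Nfib domain the position of highest H3K4me3 signal lay 8750 bp apart in the 2 states, at Meis2 3950 bp, at the Meis1 start 2750 bp and at Pou3f3 400 bp. At the gene-end peak of Pou3f2 the distance was 1750 bp, and at the Meis1 transcript end 0 bp.

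In progenitors CHD4 and p300 overlapped at most of the member peaks, and where they did, their positions of highest signal were near each other about as often as over the list. Of the 25 CHD4 peaks 22 overlapped p300 (88.0%, and 58.1% over the list), and in 14 of the 22 the positions of highest signal lay within 50 bp, as in 60.3% of pairs over the list. H3K4me3 overlapped 16 of the 25 (64.0%, and 42.2% over the list), with positions within 50 bp in 4 of 16, as in 27.5% of pairs over the list. These counts include the flanks, where 6 of the 9 CHD4 peaks lay at an end of a neighbouring protein-coding gene. Of the 16 CHD4 peaks at an end or in the body of the members, 8 overlapped H3K4me3 and 15 overlapped p300. With lists of equal size, 6 of 24 CHD4 peaks overlapped p300 in place of 22 of 25, where p300 itself had only 6 peaks in the windows. Taken from the other antibodies, 14 of 22 H3K4me3 peaks overlapped CHD4 (27.2% over the list) and 11 of 22 overlapped p300 (18.4%), and 22 of 24 p300 peaks overlapped CHD4 (91.9%) and 14 of 24 overlapped H3K4me3 (44.8%). In neurons 11 of 22 CHD4 peaks overlapped H3K4me3 (26.8% over the list), and 6 of the 14 at an end or in the body did. In 0 of the 11 were the positions within 50 bp, against 15.3% of pairs over the list. The median distance was 2650 bp here and 500 bp over the list, and pairs in wide domains alone were not compared. Of the 22, 3 overlapped p300 (20.0% over the list), and of 16 neuron H3K4me3 peaks 10 overlapped CHD4 (22.0%) and 0 overlapped p300 (2.42%). The neuron p300 peaks were 3 in all, that in Nfia and 2 in the flank of Nfix, both at an end of Dand5, and each overlapped CHD4 (99.7% over the list) and none H3K4me3 (14.4%). Of the 24 progenitor p300 peaks 2 overlapped a neuron one (8.33%, and 23.5% over the list), as did 2 of the 3 neuron p300 peaks in the other direction (75.6%).

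Other genes of these families and their partners were listed by family. Of all genes, 37.6% in progenitors and 30.0% in neurons had H3K4me3 at an end. For CHD4 these shares were 11.8% and 9.95%, and for p300 8.44% and 1.24%. Of 9 further TALE homeobox genes, H3K4me3 was listed at an end of 8 in progenitors and 6 in neurons, CHD4 at 6 and 4, and p300 at 3 and 1. Among them Pbx2 and Tgif1 had an H3K4me3 peak in the widest 5% of the progenitor list (9600 bp and 7750 bp). CHD4 at Pknox2 and p300 at Pbx3 and Tgif1 were listed in progenitors only. Of 11 further POU genes, only Pou2f1 and Pou3f4 had H3K4me3 at an end, in both states, and only Pou2f1 had CHD4, also in both. Its p300 peak was listed in progenitors only. Pou3f4, the remaining Pou3f gene, had an H3K4me3 peak of 8700 bp in progenitors and 5350 bp in neurons with neither CHD4 nor p300. All 6 SoxB and SoxC genes had H3K4me3 in both states and CHD4 in progenitors, and 5 had CHD4 in neurons, Sox4 being the one without. Sox2 (26300 bp, then 19950 bp) and Sox11 (8250 bp, then 8700 bp) had H3K4me3 in the widest 5% of both lists. At Sox1, Sox2, Sox3 and Sox11 p300 was listed in progenitors only.

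The protein-coding genes closest in pattern to 5 of the members were found by the distance between widths of the widest gene-end peak over the 6 lists, on the scale log2(width / 50 bp + 1). The nearest to Nfib were Sox2 (distance 1.17), Pax3 (1.34) and Hsp90ab1 (1.57). Sox2 was also nearest to Meis2 (1.08), followed by the neighbours Cks1b and Shc1 (1.41 each). Those nearest to Meis1 were Rpl35 and Wdr38 (0.32 each), which share peaks, and Rpl13a (0.50). The widths can come from different ends of a gene. At Meis1 the widest H3K4me3 peaks lay at the start end and the widest CHD4 and p300 peaks at the transcript end, so its pattern is not that of 1 promoter. Nt5dc2 and Smim4, which share peaks as well, were nearest to Pou3f2 (0.35 each), then Cdk5 (0.46), and Kdm6b (1.25), Rab3a (1.33) and Mpv17l2 (1.40) to Pou3f3.

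The limits set for the classes touched few peaks. The Meis1 CHD4 peak of progenitors, which began 873 bp from the gene end, and 1 of its p300 peaks, at 973 bp, were the farthest counted as gene-end peaks. The Nfix CHD4 peak of neurons at 1088 bp and the Nfia H3K4me3 peak of progenitors at 2085 bp were among the nearest left out. At the 50 kb limit, a progenitor H3K4me3 peak 47696 bp from Pou3f1 was counted and a neuron H3K4me3 peak 59482 bp from Nfic was not. Each progenitor list was also trimmed by total signal to the length of the neuron list. The members with p300 at an end in progenitors were then 2 (Nfic and Pou3f2, with 2.73% of all genes) in place of 6. Those with CHD4 and H3K4me3 stayed at 6 each (11.0% and 29.7% of all genes). Markers of cell types were counted too, beside shares of all genes of 37.6% in progenitors and 30.0% in neurons. Counts this small cannot check the cell labels against such shares. H3K4me3 was listed at an end of 3 of 6 otic progenitor markers in progenitors and 1, Sox2, in neurons. It was listed at 2 of 7 neuronal markers in both states (Tubb3 and Map2). Neurod1, Neurog1, Isl1, Pou4f1 and Rbfox3 had none in either state. Of 4 markers of otic mesenchyme 2 had it in both states (Pou3f4 and Tbx18), and of 3 hair cell and 4 glial markers none did.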

How the data were processed

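Each of the 6 deposited peak lists holds 6 columns in the layout that SEACR writes. The authors' signal values, total and highest per peak, were used only for ranks within a list, because no source used here states how they were scaled. Per the submitters' processing notes, the tools were SEACR, Bowtie2 and deepTools and the build was mm10. Their versions, roles and parameters, any use of IgG and any pooling of libraries are not given in the sources used here.

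Positions step by 50 bp and are printed counted from 1. Gene spans come from RefSeq for GRCm38.p6. Starts and strand come from its promoter table, which matched 7 of the 9 genes. Overlap means at least 1 bp shared. Intervals are exact (Clopper-Pearson) 95% binomial intervals and cover counting error only. No test was made, with 1 list per group, which was treated as 1 library. The scripts ran under Python (3.11.15) with pandas (2.3.3), SciPy (1.17.1), numpy (2.4.6) and matplotlib (3.10.9), and the overlap code was tested on simulated data.

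The members, related lists and rules were chosen with earlier results of these data known. Related genes are named where H3K4me3 was in the widest 5% of a list or CHD4 or p300 was listed in 1 state only. The 3 nearest patterns are named for members with gene-end peaks in at least 4 lists. A few results for related and neighbouring genes are not reported here.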

Additional observations from a re-analysis of the deposited data

How the results depend on the processing

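No paired analysis was possible because each antibody and state has 1 peak list. Of the recomputed main values 128 stayed within a set range (counts within 1.5 times, medians within the wide exact interval of the reported median) and 28 did not. Some of the 128 could not have moved, so these numbers do not measure how stable the results are. With lists of equal size only progenitor lists were trimmed, so counts from neuron lists alone stayed the same by construction. The width of the gene-end window cannot change the count of all peaks in the windows. Counts that held no peak, such as neuron p300 at a gene end, could not change when lists were trimmed. When peaks under the median total signal of a list were dropped (its stronger 50% kept), the members with p300 at an end in progenitors were 3 (4.36% of all genes), and the peaks in the windows were 14 for neuron CHD4, 14 and 10 for progenitor and neuron H3K4me3 and 12 for progenitor p300. In that setting 11 of 21 progenitor CHD4 peaks overlapped p300, and 11 of 12 p300 peaks overlapped CHD4. Of 14 progenitor H3K4me3 peaks 9 overlapped CHD4 and 5 overlapped p300, and 5 of 12 p300 peaks overlapped H3K4me3. In neurons 4 of 14 CHD4 peaks overlapped H3K4me3, as did 4 of 10 in the reverse direction, and 10 of 10 neuron H3K4me3 peaks overlapped progenitor ones. With lists of equal size, progenitor p300 had 2 members and 6 peaks, of which 6 overlapped CHD4, 4 overlapped H3K4me3 and 1 was shared with neurons. In the reverse direction these were 6 of 24 CHD4 peaks, 4 of 17 H3K4me3 peaks and 1 of 3 neuron p300 peaks. Trimmed lists hold fewer peaks by construction, and the share of overlapping peaks over each whole trimmed list was not computed. The RefSeq promoter windows, an alternative chosen after seeing the data, exist for 7 of the 9 members and left 2 with progenitor p300 (7.13% of all genes with a window), so that the members and the windows changed at once. A flank of 20 kb left 14 progenitor H3K4me3 peaks. With 50% of a peak covered, 6 neuron H3K4me3 peaks overlapped CHD4. Ranked by mean signal per bp, the median percentiles were 45.9 and 38.8 for progenitor and neuron CHD4 and 22.1 for progenitor H3K4me3, and ranked by highest signal 31.7 for neuron CHD4. Within the interval, yet far from the reported 73.7 and 49.0, were 30.0 for progenitor H3K4me3 by highest signal and 28.4 for progenitor p300 by mean signal per bp. Joining peaks over gaps of up to 3 kb widened the gene-end CHD4 peaks at Nfib (11250 bp and 11050 bp) and Pou3f3 in progenitors (13100 bp), and p300 at Meis1 (10250 bp). Read depth is unknown, so a peak missing from a list may lie under its threshold.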
